A study of Mus musculus with 12 samples.

Results

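*Prex2*, *Prex1*, *Sgk3*, *Sgk1*, *Pik3ca*, *Pik3cb*, *Akt1* and *Akt2*, genes of phosphoinositide 3-kinase (PI3K) signalling, were picked by symbol among the genes that arrays measured after *Kdm6a* knockdown in mouse ES cells. They were 8 of 19938 genes measured, and all 8 were among the 15309 genes whose mean level over the 12 arrays reached 0.1 of the array mean and which were tested. The set was chosen because *Prex2* was higher and *Sgk3* lower after *Kdm6a* RNAi in every experiment in one of the cell lines, PGK12.1. The PGK12.1 changes of these genes are therefore given as a description without a test, and the tests are of WD44, the other line, and of the number of RNAi rounds.

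Class I PI3K makes the lipid PIP3 at the plasma membrane, and lipid phosphatases remove it. The signal is carried along separate branches. PIP3 recruits AKT kinases, which act on FOXO factors and mTORC1, and P-REX proteins, which activate the small GTPase Rac. SGK kinases, of another branch, share many AKT substrates. In mouse ES cells, PI3K signalling downstream of LIF is known to help maintain self-renewal.

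Knockdown was done with a pool of siRNAs against *Kdm6a*, which encodes an H3K27 demethylase and lies on the X chromosome, and control cells received siRNAs with no target. PGK12.1 is a female line from a 129 mother and a (129 X PGK)F1 father, and WD44 is a male line of BL6 origin, so sex and strain cannot be told apart. PGK12.1 experiments 1 and 2 had 2 rounds of siRNA (double RNAi), the first of 100 pmol over 48 h and the second of 400 pmol over 24 h. PGK12.1 experiments 3 and 4 and WD44 experiments 1 and 2 had 1 round of 100 pmol over 48 h (single RNAi). Differences between the lines given below thus set double and single RNAi together in PGK12.1 against single RNAi in WD44. Each experiment had 1 *Kdm6a* RNAi array and 1 control array. All cells were undifferentiated, were grown with LIF at 1000 U/ml on MEF feeders and were separated from the feeders on gelatin before transfection. The sources call the array experiments of both lines independent, without saying whether the cultures of WD44 were grown apart, and p-values measure the spread between these experiments. The arrays measured RNA of whole cultures, in which fewer cells of a type and less RNA per cell cannot be told apart.

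The deposited values are on the log2 scale. Array medians lay between 6.15 and 6.21 in PGK12.1 experiments 1 and 2, at 6.47 and 6.48 in experiment 3, at 8.20 and 8.21 in experiment 4, and between 8.03 and 8.08 in WD44, so log2 values of different experiments were not on 1 scale and changes were taken within an experiment. *Kdm6a* was lower on each *Kdm6a* RNAi array than on its control, with log2 changes of -1.27, -1.50, -1.42 and -0.96 in PGK12.1 experiments 1 to 4 and -0.94 and -0.92 in WD44. The 12 ES cell markers checked, such as *Pou5f1* and *Nanog*, had mean percentiles of 85.2 to 99.9 among the genes of an array, and 1 of them, *Utf1*, fell in PGK12.1 and none passed in WD44. Of 12 fibroblast markers, 11 were measured and 9 tested, with summed levels of 1.81 to 2.52 times the array mean after *Kdm6a* RNAi and 1.77 to 2.54 in controls of PGK12.1, and 2.52 to 2.65 after *Kdm6a* RNAi and 2.33 to 2.46 in controls of WD44. *Postn* and *Lum* of that list lay below the minimum level, and no fibroblast marker passed the test in either line. Of 9 primitive endoderm markers tested, 2 fell in PGK12.1 (*Sparc* and *Lamb1*), with summed levels of 4.79 to 7.35 times the array mean after *Kdm6a* RNAi and 5.63 to 8.91 in controls, and of 9 trophoblast markers 1 fell (*Ascl2*), with 3.26 to 5.46 after *Kdm6a* RNAi and 3.64 to 6.0 in controls. In WD44 no marker of these lists passed, and trophoblast markers summed to 17.0 to 17.3 after *Kdm6a* RNAi and 15.2 to 15.8 in controls. None of 8 neuroectoderm markers passed in either line, and the part of any of these cells in the results was not tested. All these calls are at an adjusted p below 0.05 (limma), where 2.1% of all genes fell and 3.71% rose in PGK12.1. Summed levels of 3 Y-linked genes were 0.091 to 0.135 times the array mean over the PGK12.1 arrays and 1.82 to 2.07 over the WD44 arrays.

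*Prex2*, which encodes a Rac exchange factor that responds to PIP3, was higher with *Kdm6a* RNAi in all 4 PGK12.1 experiments. Its log2 values in PGK12.1 experiments 1 to 4 were 8.29, 8.28, 8.44 and 9.81 after *Kdm6a* RNAi, against 7.62, 7.76, 8.05 and 9.29 in the controls. Within every experiment the *Kdm6a* RNAi array was the higher one, and the differences of 0.67, 0.52, 0.39 and 0.52 exceeded both differences of this gene in WD44. As a level, *Prex2* averaged 0.759 ± 0.109 times the array mean after *Kdm6a* RNAi and 0.525 ± 0.0478 times in controls (SD, n = 4). The 4 *Kdm6a* RNAi arrays lay at 0.614 to 0.844 and the 4 control arrays at 0.468 to 0.582. The mean log2 change was 0.53 ± 0.11 (SD, n = 4 experiments), a level 43.9% ± 11.5 above control, and ranked 28th among rises of all genes tested.

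In WD44, *Prex2* had log2 values of 8.84 and 8.90 after *Kdm6a* RNAi and 8.85 and 8.93 in controls. Both changes lay close to 0, at -0.01 and -0.03. Their mean of -0.02 had a 95% confidence interval of -0.18 to 0.14 and did not pass the test (adjusted p = 0.926, limma). After quantile normalization across the 12 arrays the WD44 mean was 0.03, so its sign depended on the scaling. The mean change was 0.55 higher on the log2 scale in PGK12.1 than in WD44. No test of that difference is given, since the PGK12.1 values had served to choose the gene. With single RNAi alone, as in WD44, the PGK12.1 mean was 0.46.

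**Figure D1:**
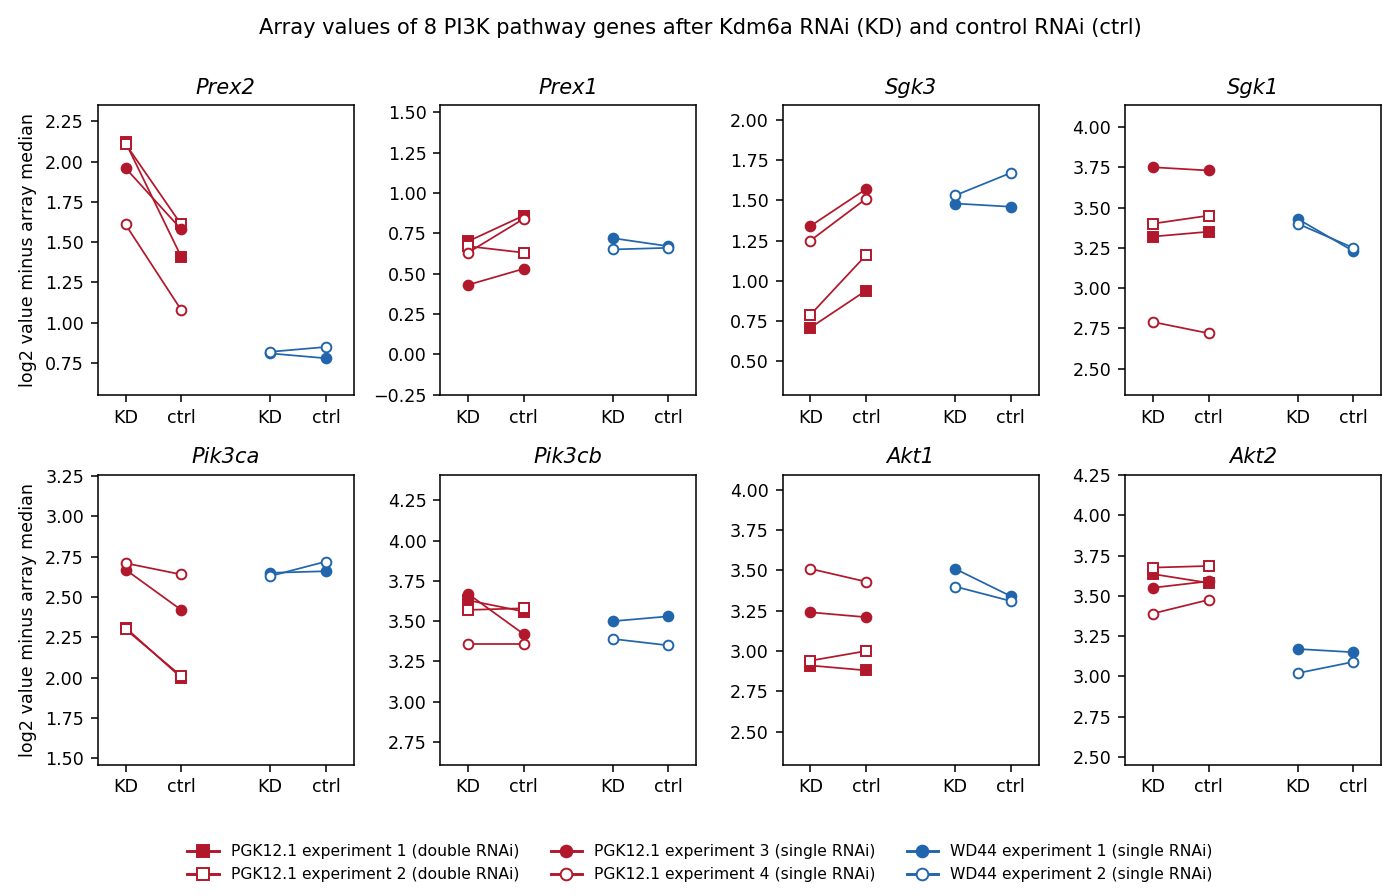
Array values of the 8 genes as log2 value minus the median of the same array, with *Kdm6a* RNAi (KD) left of control (ctrl) and a line joining the arrays of 1 experiment. PGK12.1 is red and WD44 blue, squares are double and circles single RNAi. Lines for *Prex2* fall to the right and lines for *Sgk3* climb to the right in all 4 PGK12.1 experiments. Medians were subtracted for display only, so the slopes differ slightly from the changes given in the text.

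*Prex1* encodes the related Rac exchange factor that responds to PIP3 and to G protein βγ subunits. Its log2 values in PGK12.1 were 6.87, 6.84, 6.91 and 8.83 after *Kdm6a* RNAi and 7.07, 6.78, 7.0 and 9.05 in controls. It was lower in experiments 1, 3 and 4 and higher in experiment 2, with changes of -0.20, 0.06, -0.09 and -0.22 and a mean of -0.11 ± 0.13 (SD, n = 4). The WD44 arrays gave 8.75 and 8.73 after *Kdm6a* RNAi and 8.74 and 8.74 in controls, a mean change of 0.00 with an interval of -0.17 to 0.17 (adjusted p = 1, limma). *Prex1* thus did not share the direction that *Prex2* had in PGK12.1.

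*Sgk3*, whose kinase carries a PX domain that binds PI3P on endosomes, was the lower after knockdown in all 4 PGK12.1 experiments. Its log2 values there were 6.88, 6.96, 7.82 and 9.45 after *Kdm6a* RNAi, against 7.15, 7.31, 8.04 and 9.72 in the controls. The *Kdm6a* RNAi array was the lower one in all 4, with changes of -0.27, -0.35, -0.22 and -0.27. The mean change of -0.28 ± 0.05 (SD, n = 4) is a change in level of -17.5% ± 3.05, and ranked 178th among falls of all genes tested. Relative to the array mean the level was 0.407 ± 0.117 after *Kdm6a* RNAi and 0.493 ± 0.136 in controls (SD, n = 4), and the arrays, at 0.318 to 0.574 and 0.388 to 0.692, overlapped because the experiments themselves differed in level.

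The WD44 arrays gave *Sgk3* log2 values of 9.51 and 9.61 after *Kdm6a* RNAi and 9.53 and 9.75 in controls. Both changes were below 0, at -0.02 and -0.14, and only the larger of them came near the smallest change in PGK12.1. Their mean of -0.08 had an interval of -0.22 to 0.06 and did not pass the test (adjusted p = 0.559, limma). The PGK12.1 mean was 0.20 further below 0 than the WD44 mean, a difference given without a test.

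*Sgk1* encodes the kinase of this family whose transcript is induced by serum and glucocorticoids. In PGK12.1 its log2 values were 9.49, 9.57, 10.23 and 10.99 after *Kdm6a* RNAi and 9.56, 9.60, 10.20 and 10.93 in controls. Changes of -0.07, -0.03, 0.03 and 0.06 lay on both sides of 0, below it with double and above it with single RNAi. In WD44 the values were 11.46 and 11.48 after *Kdm6a* RNAi and 11.30 and 11.33 in controls. The mean WD44 change was 0.16 with an interval of 0.02 to 0.29, which passed at the unadjusted p of 0.0286 but not after adjustment over all genes (adjusted p = 0.260, limma).

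*Pik3ca*, which encodes the p110α catalytic subunit of class I PI3K, was also higher in each PGK12.1 experiment. Its log2 values were 8.48, 8.47, 9.15 and 10.91 after *Kdm6a* RNAi and 8.21, 8.16, 8.89 and 10.85 in controls. The changes of 0.27, 0.31 and 0.26 in experiments 1 to 3 were of 1 size, and the change of 0.06 in experiment 4 was small, giving a mean of 0.23 ± 0.11 (SD, n = 4) or 16.9% ± 8.79 above control. Experiment 4 had the smallest fall of *Kdm6a* among the PGK12.1 experiments, and its arrays had the highest medians of that line. These cannot be told apart, and their part in the *Pik3ca* result was not tested. *Prex2* and *Sgk3* had no such gap, since their experiment 4 changes were within the range of the other 3. In WD44, *Pik3ca* had values of 10.68 and 10.71 after *Kdm6a* RNAi and 10.73 and 10.80 in controls. Its mean WD44 change of -0.07 had an interval of -0.23 to 0.09 (adjusted p = 0.669, limma).

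*Pik3cb*, which encodes the p110β catalytic subunit, was higher in experiments 1 to 3 and lower in experiment 4, with changes of 0.03, 0.01, 0.26 and -0.01 in PGK12.1 and -0.07 and 0.04 in WD44. Experiment 3 alone set its PGK12.1 mean of 0.07 ± 0.13 (SD, n = 4), which was 0.01 without it. The WD44 mean of -0.02 had an interval of -0.19 to 0.16 (adjusted p = 0.951, limma).

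The AKT kinases, the best known PIP3 effectors, changed little in PGK12.1. *Akt1* differed from its controls by -0.01, -0.04, 0.04 and 0.07, and *Akt2*, the isoform known for its part in the insulin response, by 0.02, 0.01, -0.03 and -0.10. In WD44, *Akt1* had log2 values of 11.54 and 11.48 after *Kdm6a* RNAi and 11.41 and 11.39 in controls. The mean change of 0.11 had an interval of -0.02 to 0.24 and did not pass the test (adjusted p = 0.394, limma). For *Akt2* the WD44 changes were -0.02 and -0.07, with an interval of -0.18 to 0.09 (adjusted p = 0.754, limma). *Akt2* was the member with 2 probe sets, which were averaged, and neither differed from its controls by more than 0.12 in any experiment.

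**Figure D2:**
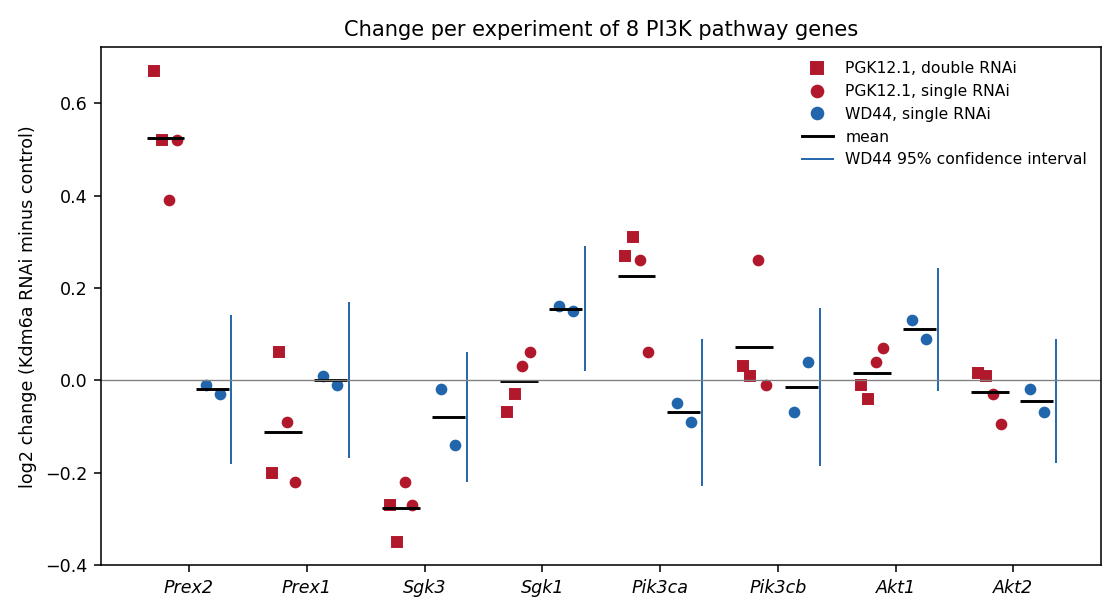
Log2 change of the 8 genes within each experiment (*Kdm6a* RNAi minus control). Red squares are PGK12.1 double RNAi, red circles PGK12.1 single RNAi, blue circles WD44 single RNAi, black bars the mean of a line and blue lines the 95% confidence interval of the WD44 mean. *Prex2* lies at 0.39 to 0.67 in PGK12.1 and in WD44 at -0.03 and -0.01, and of the 8 WD44 intervals that of *Sgk1* alone lies above 0.

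Taken by direction, 2 of the 8 genes (*Prex2* and *Pik3ca*) were higher and 1 (*Sgk3*) lower in all 4 PGK12.1 experiments, and 5 were mixed. Among all genes tested, 16.3% were higher and 10.6% lower in all 4, and since the set was chosen on these experiments its own counts say nothing further. In PGK12.1 5.81% of all genes passed after adjustment and 22.6% at an unadjusted p below 0.05 (limma). In WD44, 2 genes (*Sgk1* and *Akt1*) were higher and 4 (*Prex2*, *Sgk3*, *Pik3ca* and *Akt2*) lower in both experiments, where 31.3% of all genes were higher and 33.1% lower in both. None of the 8 passed the WD44 test after adjustment (limma), in which 0.0% of all genes passed in either direction. *Kdm6a* itself, the target, at a mean WD44 change of -0.93, did not pass it either (adjusted p = 0.13, limma). Missing this threshold thus does not show that a gene was unchanged in WD44. At an unadjusted p below 0.05, 1 of the 8 (*Sgk1*) passed, beside 16.1% of all genes, and the methods' t-test gave the same counts for the 8. Between the lines, 0.0% of all genes differed in their change after adjustment and 21.0% at an unadjusted p below 0.05, while the differences of the 8 genes are given above without a test. The WD44 intervals use 1 spread for both lines, moderated over all genes, rather than the spread of WD44 alone. The median change of all genes tested was 0.0075 in PGK12.1 and -0.005 in WD44.

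Double RNAi was set against single RNAi within PGK12.1, a contrast of the same 4 experiments in which dose, time and array set cannot be told apart. *Kdm6a* changed by a mean of -1.39 with double and -1.19 with single RNAi. *Prex2* changed by 0.60 with double and 0.46 with single RNAi, a difference of 0.14 with an interval of -0.07 to 0.35 (adjusted p = 0.709, limma). For *Sgk3* the means were -0.31 with double and -0.25 with single RNAi, a difference of -0.07 with an interval of -0.26 to 0.13 (adjusted p = 0.869, limma). *Pik3ca* changed by 0.29 with double and 0.16 with single RNAi, a difference of 0.13 with an interval of -0.08 to 0.34 (adjusted p = 0.734, limma). For the other 5 genes the differences ran between -0.11 (*Pik3cb*) and 0.09 (*Prex1*). None of the 8 passed (limma), where 0.0% of all genes passed, and none did so at an unadjusted p below 0.05, where 8.88% of all genes did. *Prex2* and *Sgk3* were chosen for 1 direction in all 4 of these experiments, so for them this contrast is not free of that choice. With 2 experiments on each side the intervals are wide, and a p that misses the threshold does not show that the rounds acted alike.

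The control level of each gene was compared between the control arrays of the lines by its percentile among the genes of an array, because the arrays do not share a scale. *Prex2* stood at a mean percentile of 65.7 on the PGK12.1 control arrays (60.5 to 69.1) and at 56.1 on those of WD44 (55.5 to 56.7). *Akt2* stood at 91.2 (89.2 to 92.2) in PGK12.1 and at 87.4 (87.2 to 87.6) in WD44. For these genes the arrays of the lines did not overlap, as was so for 51.1% of all genes, and for the other 6 genes they did. With 4 arrays against 2, the exact permutation test (two-sided) cannot give a p below 0.133, which is what *Prex2* and *Akt2* gave (adjusted p = 0.533 over the 8 genes). *Sgk3* overlapped between the lines, with a mean percentile of 63.8 on PGK12.1 control arrays (60.01 to 66.8) and of 66.6 on those of WD44 (64.9 to 68.3).

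*Sgk3* and *Prex2* lie on the same chromosome, chromosome 1, with 8 measured genes between them in the RefSeq order of GRCm38.p6. Around and between them, 18 further measured genes were examined, from the 5th before *Sgk3* to the 5th after *Prex2*, of which 14 were tested and 4 lay below the minimum level. In PGK12.1, 1 of the 14 rose and none fell (limma), where 3.71% of all genes rose and 2.1% fell, and their median change was -0.01. The gene that rose was *Sulf1*, a heparan sulfate endosulfatase and the 2nd measured gene after *Prex2*, with changes of 0.18, 0.22, 0.28 and 0.22 and a mean of 0.23 (standard error 0.04, adjusted p = 0.0174, limma). Its call was lost without PGK12.1 experiment 2, 3 or 4 (adjusted p = 0.0664, 0.0619 and 0.0525), over a range of 0.0341 to 0.0664 when any 1 experiment was left out. In WD44 *Sulf1* differed by -0.08 and 0.04.

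Of the 4 measured genes next to *Sgk3* and *Prex2*, *Mcmdc2* was lower in all 6 experiments, as *Sgk3* was, and the other 3 had changes of both signs in PGK12.1. *Vcpip1*, which precedes *Sgk3*, differed by 0.01, -0.09, 0.08 and -0.01 in PGK12.1. *Mcmdc2*, which follows it, was below the minimum level and was not tested, and its changes were -0.41, -0.20, -0.46 and -0.02 in PGK12.1 and -0.26 and -0.06 in WD44. *Cpa6*, which precedes *Prex2*, was likewise below the minimum level, with changes of -0.10, -0.01, 0.08 and -0.21. *A830018L16Rik*, which follows *Prex2*, differed by -0.13, 0.07, -0.08 and 0.05 (adjusted p = 0.825, limma). In WD44 none of the 14 passed after adjustment, and mean changes ran between -0.39 (*Rrs1*, adjusted p = 0.164, limma) and 0.07 (*Tcf24*).

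**Figure D3:**
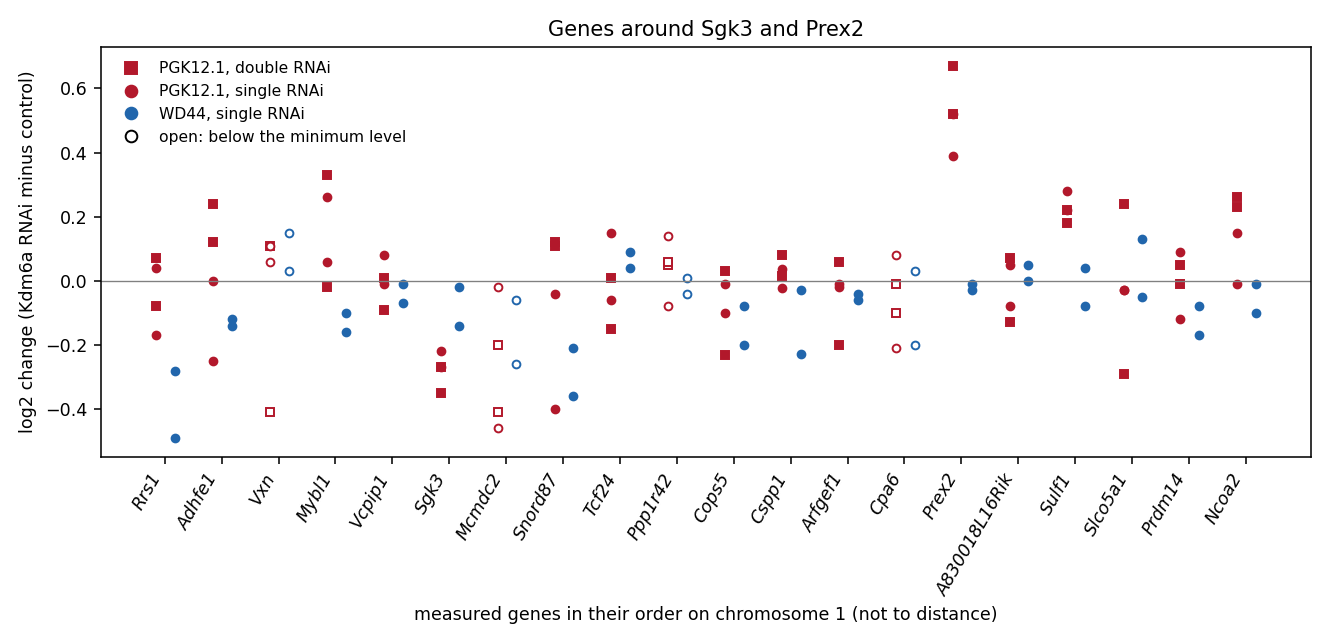
Log2 change (*Kdm6a* RNAi minus control) per experiment of the measured genes around *Sgk3* and *Prex2*, in their order on chromosome 1 and not to distance. Red squares are PGK12.1 double RNAi, red circles PGK12.1 single RNAi and blue circles WD44, with open symbols for genes below the minimum level. The 4 PGK12.1 points of *Prex2*, at 0.39 to 0.67, lie above all other points.

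The other genes of the pathway were taken from 9 lists by role, with 171 genes, of which 164 were measured and 155 tested. In PGK12.1, 10 rose and 5 fell, or 9.68% of those tested beside 5.81% of all genes (3.71% rose and 2.1% fell), which is also what the count of each list below is to be read against, and the median change was 0.03 beside 0.0075 over all genes. In WD44 none passed (limma), 20 did at an unadjusted p below 0.05 (16.1% of all genes did), and the median was -0.05 beside -0.005 over all genes. The calls were sensitive to single experiments: leaving out any 1 of the 6 lowered the count to between 1 and 5 that rose and between 2 and 3 that fell. *Ccng2*, *Erbb3* and *Rragd* passed in all 6 of these fits. *Arhgef7* did not pass without PGK12.1 experiment 1, 2 or 3 nor *Ulk1* without 2, 3 or 4, *Cdkn1b*, *Foxo3* and *Gadd45a* passed only without experiment 4, *Ddit4l* only without 1 and *Tns1* only without 3, and the other 5 passed in none.

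Upstream of PI3K, 22 receptors, ligands and adaptors were tested, of which 2 fell and none rose in PGK12.1. *Erbb3*, a receptor that recruits the regulatory subunit of PI3K, had changes of -0.39, -0.55, -0.42 and -0.43, a change in level of -26.7% (log2 change -0.45, standard error 0.05, adjusted p = 0.00122, limma). It was lower in every PGK12.1 experiment, and in WD44 it differed by -0.15 and -0.02. *Tcl1*, a coactivator of AKT and no receptor, was lower in all 6 experiments, by -0.17, -0.15, -0.14 and -0.23 in PGK12.1 (adjusted p = 0.0423, limma) and by -0.38 and -0.31 in WD44 (adjusted p = 0.164, limma). Besides *Pik3ca* and *Pik3cb*, 12 genes of PI3K subunits and of proteins that act on PI3K (*Pik3ap1* and *Pik3ip1*) were tested. Of these *Pik3c3* rose, with changes of 0.19, 0.22, 0.16 and 0.11 (adjusted p = 0.0475, limma). It encodes the class III enzyme that makes PI3P, the lipid bound by the PX domain of SGK3. In WD44 *Pik3c3* differed by -0.07 and -0.15.

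Of 14 phosphatases tested, 1 fell in PGK12.1. This was *Tns1*, which encodes a focal adhesion protein and is not known as a PIP3 phosphatase, at a mean change of -0.27 (adjusted p = 0.0248, limma). None of 14 genes of PDK1, mTORC2, and AKT and SGK kinases or their regulators, besides the 4 above, passed. The largest mean change among them was that of the pseudokinase *Trib2*, with 0.28, 0.22, -0.01 and 0.51 (adjusted p = 0.0975, limma).

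Of 22 AKT and SGK substrates, 2 rose. *Foxo3*, a transcription factor held in the cytoplasm when AKT or SGK phosphorylates it, had changes of 0.28, 0.24, 0.30 and 0.06 (adjusted p = 0.033, limma). *Cdkn1b*, which encodes the cell cycle inhibitor p27, had changes of 0.56, 0.30, 0.39 and 0.04 (adjusted p = 0.0465, limma). Both had their smallest change in experiment 4, as *Pik3ca* did. In WD44 *Foxo3* differed by -0.08 and -0.05, and *Cdkn1b* by -0.22 and 0.08.

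Among 16 FOXO target genes, 3 rose and none fell, or 18.75% of the list, the same share as in the mTORC1 branch. Of the 3, *Ccng2* passed in all 6 fits without 1 experiment, *Gadd45a* in 1 and *Sod2* in none. *Ccng2*, which encodes cyclin G2, had the largest mean change of all 155 genes, with 0.92, 0.46, 0.73 and 0.33, a level 52.6% above control (log2 change 0.61, standard error 0.09, adjusted p = 0.00732, limma). In WD44 it differed by -0.46 and -0.07, and the difference between the lines did not pass the test (0.88, adjusted p = 0.0853, limma). *Sod2*, the mitochondrial superoxide dismutase, had changes of 0.19, 0.23, 0.15 and 0.16 (adjusted p = 0.0312, limma). *Gadd45a*, a stress response gene, had changes of 0.32, 0.41, 0.36 and 0.02 (adjusted p = 0.0344, limma). The other 13 did not pass.

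In the mTORC1 branch 1 of 16 genes rose and 2 fell in PGK12.1, or 18.75% of the list. *Rragd*, a RAG GTPase that brings mTORC1 to the lysosome, was lower in all 6 experiments, by -0.45, -0.24, -0.40 and -0.40 in PGK12.1 (adjusted p = 0.00313, limma) and by -0.25 and -0.30 in WD44 (adjusted p = 0.164, limma). *Ulk1*, the autophagy kinase that mTORC1 inhibits, was likewise lower in all 6, by -0.16, -0.24, -0.25 and -0.21 in PGK12.1 (adjusted p = 0.0168, limma) and by -0.18 and -0.18 in WD44 (adjusted p = 0.21, limma). *Ddit4l*, a known inhibitor of mTORC1, had changes of 0.10, 0.22, 0.37 and 0.52 in PGK12.1 (adjusted p = 0.0285, limma).

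Close to P-REX in function, *Arhgef7* and *Tiam1*, which both encode exchange factors that act on Rac, rose in PGK12.1. *Arhgef7* had changes of 0.56, 0.47, 0.43 and 0.08 in PGK12.1 (adjusted p = 0.0139, limma) and of 0.03 and 0.03 in WD44. *Tiam1* had changes of 0.30, 0.37, 0.10 and 0.13 in PGK12.1 (adjusted p = 0.0466, limma) and of -0.11 and -0.25 in WD44. Close to SGK3, 1 of 18 genes rose in a list of phosphoinositide kinases, PX-domain genes and other endosome genes such as *Eea1* and *Rab5a*. It was *Snx2*, a sorting nexin with a PX domain, at a mean change of 0.17 (adjusted p = 0.047, limma).

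**Figure D4:**
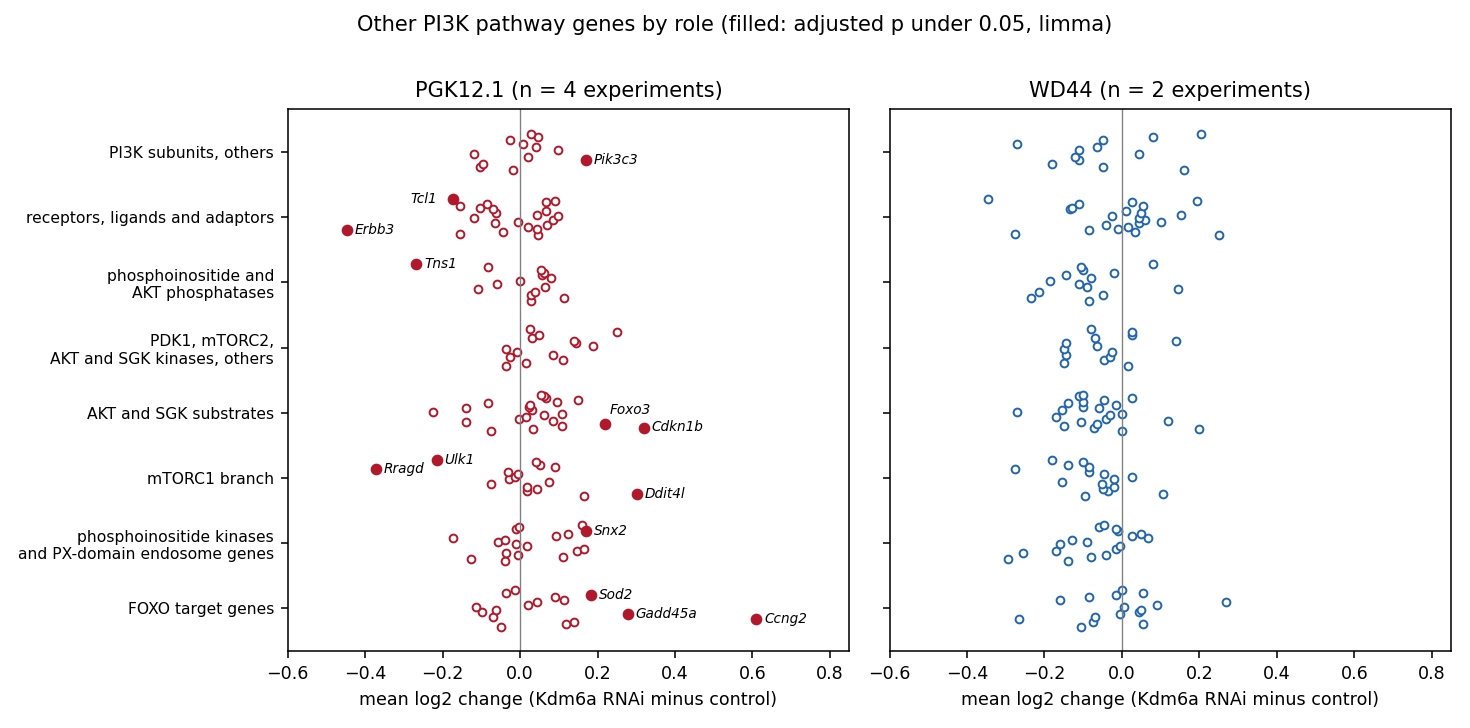
Mean log2 change (*Kdm6a* RNAi minus control) of 132 tested pathway genes other than the 8, in 8 rows by role, for PGK12.1 (left, n = 4 experiments) and WD44 (right, n = 2 experiments). Each point is 1 gene in 1 list, genes of more than 1 list are drawn in each, and filled points have an adjusted p below 0.05 (limma). Filled points number 13 in PGK12.1 and none in WD44, and 1 of the 9 lists is not drawn.

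The genes whose changes over the 6 experiments were most like those of *Prex2*, by root mean square difference on the log2 scale, were *Arhgef26* (0.0807), *Crybg3* (0.0889) and *Notum* (0.0890), where the changes of *Prex2* themselves had a root mean square of 0.436. *Arhgef26* encodes a guanine nucleotide exchange factor, and its changes were 0.57, 0.41, 0.49 and 0.58 in PGK12.1 and -0.04 and -0.08 in WD44. *Notum*, an extracellular Wnt inhibitor, had changes of 0.62, 0.52, 0.30 and 0.34 in PGK12.1 and -0.04 and 0.03 in WD44. Most like *Sgk3*, whose changes had a root mean square of 0.237, were *Gjb5* (0.0300), *Cs* (0.0474) and *Hic2* (0.0539). *Gjb5*, a connexin gene, had changes of -0.27, -0.35, -0.24 and -0.31 in PGK12.1 and -0.07 and -0.11 in WD44. *Cs*, which encodes citrate synthase, had changes of -0.31, -0.28, -0.23 and -0.23 in PGK12.1 and -0.04 and -0.07 in WD44. These genes were picked for their likeness, so their changes are a description without a test.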

How the data were processed

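Total RNA of ES cells was hybridized to 12 Mouse Gene 1.0 ST arrays (Affymetrix), for which the authors deposited log2 values of 35556 probe sets. The submitters' processing notes name RMA and Affymetrix Expression Console and give no versions. RMA evens out the arrays processed together, and which were is not given in the sources used here. The deposited values were used as they are. Genes were named through the platform annotation (21789 probe sets with 1 symbol, 1621 with several and 12146 with no listed gene), several probe sets of a gene were averaged (999 genes), and 19919 of 19938 genes were found in a RefSeq table (GRCm38.p6) that gave chromosomes and gene order. The minimum level of 0.1 of the array mean, averaged over the 12 arrays, follows the study. Below it lay 4629 genes.

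Tests used limma 3.58.1 in R 4.3.3 (4 residual and 5.66 prior degrees of freedom, two-sided, Benjamini-Hochberg over 15309 genes, threshold 0.05), with the experiment as a block and 1 spread for both lines. The labels number each *Kdm6a* RNAi array and its control alike, and the methods name paired tests. The deviations of the 2 arrays of an experiment from their group means had a correlation of 0.828, 0.846, 0.915 and 0.972 for PGK12.1 experiments 1 to 4, and of 0.265 for WD44. Array scale raises the PGK12.1 values and the WD44 value is common to its 2 experiments by construction, so this check does not settle the pairing. Permutation tests used scipy 1.17.1, and figures matplotlib 3.10.9. The models were tested on simulated data. Fold and percent changes come from mean log2 differences. The SD beside a percent change is that of the percent changes of the single experiments.

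The 8 genes and all gene lists were chosen with earlier results of these data known. Named are the 8 genes, *Kdm6a*, up to 3 called genes per list (smallest adjusted p) or, with none called, the gene of the largest mean change, the neighbours given, and the 3 genes most like *Prex2* and *Sgk3* each. Alternatives tried were leaving out each experiment, no block, other minimum levels, single probe sets, trend and robust moderation, quantile normalization, each line by itself, single RNAi only and the methods' paired t-test.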

Additional observations from a re-analysis of the deposited data

Results flagged for a closer look

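Between the lines, changes after *Kdm6a* RNAi ran in opposite directions in every experiment for *Prex2* (the PGK12.1 mean minus the WD44 mean was 0.55 on the log2 scale) and *Pik3ca* (0.30). These differences are given without a test, and the WD44 mean of *Prex2* was -0.02 as deposited and 0.03 after quantile normalization across the arrays. The same held for *Pik3c3* (0.28), *Tns1* (-0.35), *Foxo3* (0.29), *Tiam1* (0.41), *Ccng2* (0.88), *Arhgef26* (0.57) and *Crybg3* (0.54). Most of these genes were named for their PGK12.1 changes. Among all genes tested, 31.3% were higher and 33.1% lower in both WD44 experiments, whatever their direction in PGK12.1. The share of all genes that ran opposite in every experiment was not counted. The difference of *Pik3c3*, *Tns1*, *Foxo3*, *Tiam1* and *Ccng2* did not pass limma's test between PGK12.1 and WD44 (adjusted p = 0.0999, 0.105, 0.117, 0.0932 and 0.0853). *Arhgef26* and *Crybg3* were picked for their likeness to *Prex2*, and their difference is given without a test.

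In PGK12.1, 1 of the 4 experiments stood far from the other 3 for *Pik3cb* (experiment 3, log2 change 0.26), for the neighbouring gene *Vxn* (experiment 1, -0.41, below the minimum level) and for *Hic2* (experiment 2, -0.35). Chance alone gives about 1 such case in 20 groups, and 49 genes were screened.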

How the results depend on the processing

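Under the alternatives *Prex2* in PGK12.1 ran between 0.46 and 0.57, *Sgk3* between -0.30 and -0.25 and *Pik3ca* between 0.16 and 0.28 on the log2 scale, and 0 of the 8 genes passed the WD44 test or that of double minus single RNAi in any of them. Means near 0 did not keep their sign, among them *Prex2* in WD44 (-0.03 to 0.03). The adjusted p of *Sgk1* in WD44 ran between 0.168 and 1.

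Counts of called genes moved, and 568 higher and 322 lower genes in PGK12.1, with 10 and 5 of them in the pathway lists, are what the numbers below are set against. In the fit without the replicate block, whose spread holds the array scales, 0 genes were higher and 0 lower, as in the pathway lists. Leaving out 1 experiment gave 198 to 396 higher and 152 to 211 lower genes, with 1 to 5 and 2 to 3 in the pathway lists. Without a minimum level the counts were 270 and 182 (pathway 2 and 3), and at a minimum of 0.25 there were 926 higher. Trend and robust moderation gave 1101 and 546, each line by itself 332 and 205 (pathway 2 and 3), and single RNAi alone 43 and 58 (pathway 1 and 3). Quantile normalization left 5 higher pathway genes. The methods' t-test gave 1517 and 927 at its own unadjusted threshold (pathway 20 and 9) and 0 and 0 after Benjamini-Hochberg adjustment, also for the pathway.

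In WD44, with 0 genes called, 1 lower gene passed without PGK12.1 experiment 4, over a range of 0 to 1 when an experiment was left out, and 1 at the minimum of 0.25 and after quantile normalization. Trend and robust moderation gave 2 higher and 10 lower (pathway 1 lower). The methods' t-test gave 516 higher and 529 lower unadjusted (pathway 1 and 13), and 77 and 97 adjusted (pathway 1 and 6). The causes were not tested. With 2 experiments in WD44, a change as small as that of *Sgk3* in PGK12.1 may go undetected there. The larger WD44 change of *Kdm6a* itself (-0.93) also did not pass after adjustment in the main fit (adjusted p = 0.13, limma).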
